A study of Homo sapiens with 9 samples.

Results

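The replication-dependent histone genes were followed through a sequencing study of LITATS1, a long noncoding RNA, in A549 cells, an established human lung adenocarcinoma line. They were taken by symbol: H1- followed by 1 to 5, or a start of H2AC, H2BC, H3C or H4C (older names HIST1, HIST2 and HIST3), with pseudogenes left out and at least 30 counts summed over the 9 libraries. Of 60676 genes in the count table, 69 bore such a name, and 27 of them reached the minimum. Cells carried 1 of 3 lentiviral short hairpin constructs: shLITATS1-1 or shLITATS1-2, which are independent hairpins against LITATS1, or shNT, which has no intended target. Each group held 3 libraries, called biological replicates in the design. All 3 groups shared overnight transduction, puromycin selection and the time of RNA isolation, so the shNT cells carried a construct and had been selected too. Nothing in the labels says whether the libraries came from separate transductions. The p-values therefore measure the spread between these libraries.

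Replication-dependent histones are the proteins that package newly copied DNA, and a cell makes most of their mRNA during S phase. H2A, H2B, H3 and H4 form the core of the nucleosome, and H1 binds the linker DNA between nucleosomes. Their mRNAs are the known exception among animal mRNAs: they usually carry no poly(A) tail and end just after a conserved stem-loop, which the stem-loop binding protein SLBP and the U7 ribonucleoprotein use to place the cut. Some of these genes also give longer, polyadenylated transcripts, mainly outside S phase and in differentiated cells. The genes lie in clusters, many as head-to-head pairs of an H2A and an H2B gene.

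The libraries held 24556848 to 24671296 fragments each, of which 19610514 to 19989652 were assigned to genes, and 15500 genes had enough counts to be tested. Unaligned fragments made up 5.39% to 5.57% of a library with either LITATS1 hairpin and 3.66% to 3.86% with shNT, and the part of this in the results below was not tested. LITATS1 itself stood at 22.0% and 19.96% of its shNT level with shLITATS1-1 and shLITATS1-2. Markers of the lung epithelial line were present, 7 of 7 tested, and of 9 markers of fibroblasts, immune cells and endothelial cells none had enough counts to be tested. Among 9 RNAs known to lack a poly(A) tail, 6 had no count in any library, RMRP, RPPH1 and RN7SK among them, and their summed level was 1.63 to 1.79 CPM with shLITATS1-1, 1.10 to 1.83 CPM with shLITATS1-2 and 1.64 to 2.72 CPM with shNT, with all groups overlapping. The way RNA was selected for the libraries is not given in the sources used here. How far the counts cover histone mRNAs without a tail is thus not known. The histone levels below are those of the counted fragments and may hold such mRNAs only in part.

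The stem-loop is the element that sets these mRNAs apart, and it was found in GENCODE 29 transcripts (GRCh38) of 19 of the 27 genes, in 5 spellings. The commonest spelling occurred in 10 genes, among them H2AC6. Another was shared by 3 H2B genes, among them H2BC5, and still another by 3 H4 genes, among them H4C8. H4C9 and H4C14 shared the fourth, and H2AC11 alone had the fifth. They are shown as in the RNA-sense transcript, 5′ to 3′, with the stem-loop in capitals and 5 bases on either side:
H2AC6: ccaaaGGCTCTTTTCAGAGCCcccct
H2BC5: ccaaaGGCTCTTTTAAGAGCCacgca
H4C8: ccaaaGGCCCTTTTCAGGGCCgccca
H4C9: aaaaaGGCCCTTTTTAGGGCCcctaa
H2AC11: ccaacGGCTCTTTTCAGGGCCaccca

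Most of the measured genes also had an annotated transcript that runs on past this element. In 16 of the 27 genes, a GENCODE 29 transcript held a polyadenylation hexamer (AATAAA or ATTAAA, sense strand only) within its last 50 bases. This need not be the transcript with the stem-loop. Among the 16, H3C6 and H2BC11 had no stem-loop in any transcript, and H2BC5 ran no more than 39 bases past it. The H2AC6 transcript shown went on for 1128 bases after the stem-loop and that of H2BC21 for 1729 bases. H2AC13 was the single member with a stem-loop and no transcript that held such a hexamer or ran 100 bases or more past the stem-loop. Other members also had a transcript ending near it, as that of H4C8 shown did, 18 bases past. For 6 genes, H2BC12, H1-2, H2AC20, H4C3, H3C2 and H3C12, GENCODE 29 listed neither element, and several of these models hold little beyond the coding part. No source used here gives the annotation release behind the counts, and these ends describe GENCODE 29 and not the counted features.

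The histone genes did not follow 1 pattern with both hairpins. Their summed level was 132.2, 123.7 and 131.0 CPM in the 3 shLITATS1-1 libraries, 181.6, 190.4 and 183.0 CPM in the shLITATS1-2 libraries and 108.4, 115.8 and 122.9 CPM in the shNT libraries, where CPM is fragments per 1000000 gene fragments after TMM scaling. The shLITATS1-2 libraries stood above all others, and the shLITATS1-1 libraries lay just above the shNT libraries without overlap. In percent of the shNT mean this was 111.5% ± 3.96 with shLITATS1-1 and 159.9% ± 4.08 with shLITATS1-2 (SD, n = 3 each). In all such percentages of shNT, the SD is that of the hairpin's libraries alone. It leaves out the spread of the shNT libraries, which here had an SD of 7.27 around 115.7 CPM. Without H2BC12 and H2AC6, the 2 most counted genes, the other 25 summed to 98.7% ± 3.70 and 144.9% ± 5.45 of shNT. In bulk RNA, fewer cells in a given phase and less RNA per cell cannot be told apart.

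**Figure D1:**
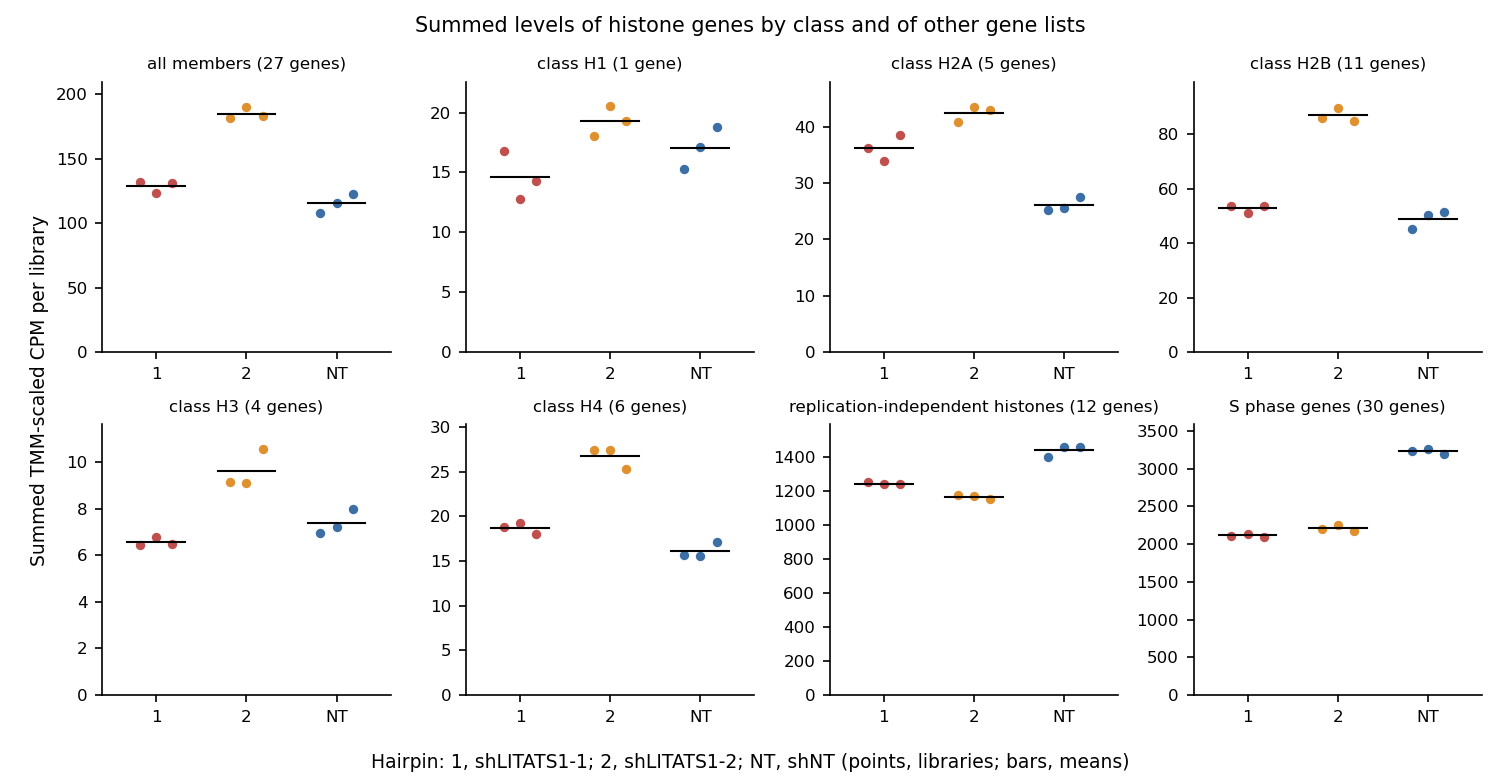
Summed TMM-scaled CPM of each library for all 27 histone genes, for each histone class, for the replication-independent histones and for 30 S phase genes. Points are libraries, bars are means of 3, and axes start at 0. The shLITATS1-2 points of the 27 genes lie between 181.6 and 190.4 CPM, while the S phase genes lie below the shNT points with both hairpins.

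Of the 27 genes, 23 had enough counts to be tested, and H4C16, H3C12, H2BC7 and H2BC9 did not. With shLITATS1-1, 5 of the 23 were higher than with shNT (21.7%), 6 were lower (26.1%) and 12 did not pass. Over all genes tested, 30.5% were higher and 30.5% lower, so neither share stood above that background. With shLITATS1-2, 14 were higher (60.9%), 3 were lower (13.0%) and 6 did not pass, against 27.8% higher and 28.9% lower among all genes. The median log2 fold change of the 23 genes was -0.15 with shLITATS1-1 and 0.44 with shLITATS1-2, against -0.0070 and -0.0040 over all genes. These calls rest on the quasi-likelihood test of edgeR, adjusted by Benjamini-Hochberg over all 15500 genes and a threshold of 0.05. With scaling by library size alone, 14 were higher and 1 lower with shLITATS1-2, and the summed level was 110.1% and 173.0% of shNT with the hairpins in the same order. The filter on low counts keeps a gene that is high in 1 group only, so the counts describe the tested genes and not all 27. H4C5, 1 of the 14 called higher with shLITATS1-2, passed the filter only through its shLITATS1-2 libraries. Without shLITATS1-1 replicate 3 or without shNT replicate 3, 3 genes in place of 6 were lower with shLITATS1-1. Without shLITATS1-2 replicate 3 or without shNT replicate 3, 1 gene in place of 3 was lower with shLITATS1-2.

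The hairpins were also set directly against each other. In shLITATS1-1 minus shLITATS1-2, 15 of 23 genes were lower (65.2%) and 1 was higher (4.3%), against 30.7% lower and 30.2% higher among all genes. The median difference was -0.51 on the log2 scale, against -0.015 over all genes. H2BC6, the 1 gene that was higher, was not called without shLITATS1-1 replicate 1 (adjusted p = 0.157), shLITATS1-1 replicate 3 (0.0776) or shLITATS1-2 replicate 2 (0.175, same test). Both hairpin comparisons use the same shNT libraries. They called 4 genes higher with both (17.4% of those tested, against 15.2% of all genes), H2AC6, H2BC21, H4C9 and H4C8. H2AC20 and H2AC25 were lower with both (8.7%, against 16% of all genes). H1-2 and H2BC11, 2 of the 23, were called in opposite directions, as were 9.01% of all genes. DESeq2 called neither H1-2 nor H2BC11 against shNT. Without shNT replicate 1, 4 genes in place of 2 were lower with both, and 1 was without shNT replicate 3, shLITATS1-1 replicate 1 or 3, or shLITATS1-2 replicate 1 or 3.

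**Figure D2:**
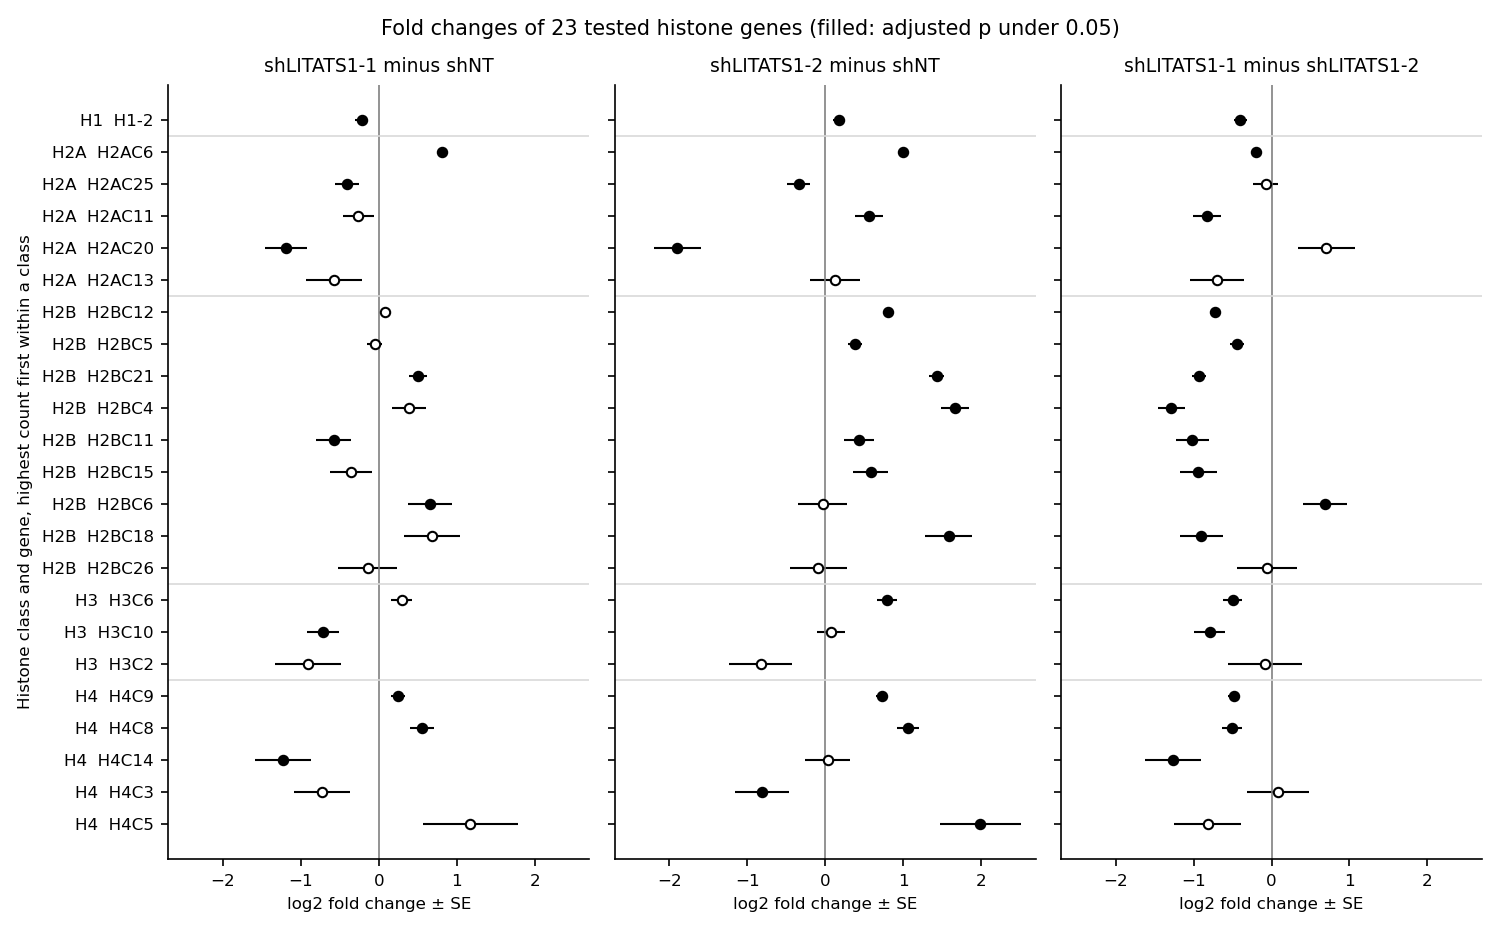
Log2 fold changes with standard errors of the 23 tested histone genes in the 3 comparisons, grouped by histone class. Filled points passed an adjusted p of 0.05 in edgeR's quasi-likelihood test, and most points of the third panel lie left of 0.

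H1-2 (ENSG00000187837) encodes a linker histone and was the 1 H1 gene of 5 to reach the minimum. H1-2 stood at 16.8, 12.8 and 14.3 CPM with shLITATS1-1, 18.0, 20.5 and 19.3 CPM with shLITATS1-2, and 15.3, 17.1 and 18.8 CPM with shNT. The 3 shLITATS1-2 libraries lay above the 3 shLITATS1-1 libraries, while either hairpin overlapped shNT. H1-2 had log2 fold changes of -0.22 (SE 0.083, adjusted p = 0.017) with shLITATS1-1 and 0.18 (SE 0.078, adjusted p = 0.047) with shLITATS1-2 in the edgeR test against shNT. H1-2 differed by -0.40 (SE 0.080, adjusted p = 1.85e-05, edgeR) in shLITATS1-1 minus shLITATS1-2. The call against shNT was lost with shLITATS1-1 when shLITATS1-1 replicate 2 (adjusted p = 0.196), shLITATS1-1 replicate 3 (0.0601) or shNT replicate 3 (0.153) was left out of the edgeR test. Several single libraries also decided the other call. That with shLITATS1-2 was lost without shLITATS1-2 replicate 2 (adjusted p = 0.225) or 3 (0.069), shNT replicate 1 (0.262) or 2 (0.0885), or shLITATS1-1 replicate 3 (0.0562, edgeR). With the GC trend removed, both calls against shNT were lost (adjusted p = 0.0753 and 0.0784, edgeR). The length trend removed also took the first (0.0831), and no filter the second (0.0606, edgeR). The difference between the hairpins held in the 19 alternatives run, with a highest adjusted p of 0.00169 in that test.

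The H2A class summed to 138.7% ± 8.76 of shNT with shLITATS1-1 and 162.3% ± 5.53 with shLITATS1-2 (SD, n = 3 each), and 1 gene held most of it. H2AC6 (ENSG00000180573, older name HIST1H2AC) encodes a canonical H2A. H2AC6 stood at 29.8, 27.2 and 32.3 CPM with shLITATS1-1, 33.6, 34.7 and 33.9 CPM with shLITATS1-2, and 17.1, 17.4 and 16.4 CPM with shNT. All 6 libraries of the LITATS1 hairpins lay above the shNT libraries, and the shLITATS1-2 libraries lay above those of shLITATS1-1. H2AC6 had log2 fold changes of 0.81 (SE 0.066, adjusted p = 1.07e-17) with shLITATS1-1 and 1.00 (SE 0.064, adjusted p = 6.99e-23) with shLITATS1-2 in the edgeR test against shNT. H2AC6 differed by -0.20 (SE 0.058, adjusted p = 0.00263, edgeR) in shLITATS1-1 minus shLITATS1-2. The difference between hairpins did not pass without shLITATS1-1 replicate 2 (adjusted p = 0.072, edgeR).

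H2AC20 (ENSG00000184260, older name HIST2H2AC), another canonical H2A gene, moved the other way. H2AC20 stood at 0.578, 0.579 and 0.895 CPM with shLITATS1-1, 0.386, 0.529 and 0.336 CPM with shLITATS1-2, and 1.43, 1.59 and 1.69 CPM with shNT. The 3 groups did not overlap, with shNT highest and shLITATS1-2 lowest. H2AC20 had log2 fold changes of -1.19 (SE 0.27, adjusted p = 0.000128) with shLITATS1-1 and -1.90 (SE 0.30, adjusted p = 1.08e-07) with shLITATS1-2 in the edgeR test against shNT. H2AC20 differed by 0.70 (SE 0.37, adjusted p = 0.0893, edgeR) in shLITATS1-1 minus shLITATS1-2, which did not pass. With the trend on GC content removed, that difference was 0.85 and passed (adjusted p = 0.0376, edgeR). Of its 100-base windows, 17.2% also occur in another gene's transcript, so reads could be split between copies.

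H2AC25 (ENSG00000181218, HIST3H2A) and H2AC11 (ENSG00000196787, HIST1H2AG) were the remaining H2A genes among the 10 highest members. H2AC25 stood at 3.05, 3.63 and 3.05 CPM with shLITATS1-1, 3.09, 3.94 and 3.22 CPM with shLITATS1-2, and 3.89, 3.94 and 5.13 CPM with shNT. H2AC25, from the small cluster on the long arm of chromosome 1, lay below shNT in all shLITATS1-1 libraries and overlapped it with shLITATS1-2. H2AC25 had log2 fold changes of -0.41 (SE 0.15, adjusted p = 0.0151) with shLITATS1-1 and -0.34 (SE 0.15, adjusted p = 0.0438) with shLITATS1-2 in the edgeR test against shNT. The first call was lost without shLITATS1-1 replicate 1 (adjusted p = 0.0579) or 3 (0.0559) or shNT replicate 3 (0.169). The second was lost without shLITATS1-2 replicate 1 (0.157) or 3 (0.121) or shNT replicate 3 (0.331, all in the edgeR test). DESeq2 made neither call (adjusted p = 0.0655 and 0.135). The second was also lost with library size scaling, no filter, a filter of 50 counts or the length trend removed (0.0516 to 0.188, edgeR). H2AC11 stood at 2.31, 2.05 and 1.89 CPM with shLITATS1-1, 3.23, 3.56 and 4.32 CPM with shLITATS1-2, and 2.20, 1.84 and 3.49 CPM with shNT. Its shLITATS1-2 libraries lay above those of shLITATS1-1, and both overlapped shNT. H2AC11 had log2 fold changes of -0.27 (SE 0.20, adjusted p = 0.251), which did not pass, with shLITATS1-1 and 0.56 (SE 0.17, adjusted p = 0.00455) with shLITATS1-2 in the edgeR test against shNT. H2AC11 differed by -0.83 (SE 0.18, adjusted p = 7.16e-05, edgeR) in shLITATS1-1 minus shLITATS1-2. The call with shLITATS1-2 was lost without shNT replicate 2 (adjusted p = 0.0765, edgeR). H2AC13 ranged over 0.421 to 0.526 CPM with shLITATS1-1, 0.482 to 1.10 CPM with shLITATS1-2 and 0.665 to 0.821 CPM with shNT, and passed in none of the 3 comparisons. Without shLITATS1-2 replicate 1, H2AC13 was lower in shLITATS1-1 minus shLITATS1-2 (-0.96, adjusted p = 0.0196, edgeR). Of the 100-base windows of H2AC13, 57.7% occur in other genes.

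The H2B class showed the widest gap between the hairpins of the 5 classes, at 107.9% ± 3.32 of shNT with shLITATS1-1 and 177.6% ± 5.17 with shLITATS1-2 (SD, n = 3 each). Of 9 tested H2B genes, 7 were higher with shLITATS1-2 (77.8%, against 27.8% of all genes) and none was lower (28.9% of all genes were). With shLITATS1-1, 2 were higher (22.2%) and 1 was lower (11.1%), below the 30.5% each among all genes. H2BC12 (ENSG00000197903, older name HIST1H2BK) was the most counted histone gene, with 6101 of 25672 counts. H2BC12 stood at 28.6, 28.0 and 28.2 CPM with shLITATS1-1, 47.8, 47.7 and 44.9 CPM with shLITATS1-2, and 24.5, 28.1 and 27.9 CPM with shNT. The shLITATS1-2 libraries stood apart from the other 6, which overlapped. H2BC12 had log2 fold changes of 0.076 (SE 0.061, adjusted p = 0.282), which did not pass, with shLITATS1-1 and 0.80 (SE 0.055, adjusted p = 3.33e-21) with shLITATS1-2 in the edgeR test against shNT. With the trend on GC content removed, the value with shLITATS1-1 was 0.17 and passed (adjusted p = 0.00831, edgeR). H2BC12 differed by -0.73 (SE 0.055, adjusted p = 2.93e-19, edgeR) in shLITATS1-1 minus shLITATS1-2. RefSeq (GRCh38.p14) gives H2BC12 a span of 8566 bases, chr6:27138293-27146858 on the minus strand, which contains H4C9 on the plus strand, while its GENCODE 29 model has 381 exon bases. Of the 100-base windows of that model, 28.4% also occur in another gene's transcript. The strand setting of the counting is not given in the sources used here. Reads of the 2 genes may not be fully told apart.

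H2BC21 (ENSG00000184678, older name HIST2H2BE) and H2BC4 (ENSG00000180596, HIST1H2BC) encode canonical H2B proteins and were highest with shLITATS1-2. H2BC21 stood at 7.93, 6.79 and 9.68 CPM with shLITATS1-1, 15.3, 15.8 and 15.3 CPM with shLITATS1-2, and 5.42, 5.68 and 6.11 CPM with shNT. The 3 groups did not overlap, with shLITATS1-2 highest and shNT lowest. H2BC21 had log2 fold changes of 0.50 (SE 0.11, adjusted p = 8.62e-05) with shLITATS1-1 and 1.43 (SE 0.10, adjusted p = 2.57e-21) with shLITATS1-2 in the edgeR test against shNT. H2BC21 differed by -0.93 (SE 0.091, adjusted p = 2.89e-14, edgeR) in shLITATS1-1 minus shLITATS1-2. H2BC4 stood at 1.84, 1.63 and 1.95 CPM with shLITATS1-1, 4.15, 4.52 and 4.56 CPM with shLITATS1-2, and 0.972, 1.53 and 1.64 CPM with shNT. Here too shLITATS1-2 stood above the rest, by a factor of 3.18 over shNT, and shLITATS1-1 overlapped shNT. H2BC4 had log2 fold changes of 0.38 (SE 0.22, adjusted p = 0.129), which did not pass, with shLITATS1-1 and 1.67 (SE 0.18, adjusted p = 1.03e-12) with shLITATS1-2 in the edgeR test against shNT. H2BC4 differed by -1.29 (SE 0.17, adjusted p = 9.24e-10, edgeR) in shLITATS1-1 minus shLITATS1-2.

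H2BC5 (ENSG00000158373, HIST1H2BD) followed H2BC12 with a smaller change. H2BC5 stood at 9.45, 8.84 and 8.89 CPM with shLITATS1-1, 12.0, 13.0 and 11.9 CPM with shLITATS1-2, and 9.42, 8.90 and 9.96 CPM with shNT. Its shLITATS1-2 libraries lay above the other 6. H2BC5 had log2 fold changes of -0.056 (SE 0.094, adjusted p = 0.628), which did not pass, with shLITATS1-1 and 0.38 (SE 0.087, adjusted p = 0.000127) with shLITATS1-2 in the edgeR test against shNT. H2BC5 differed by -0.44 (SE 0.089, adjusted p = 1.6e-05, edgeR) in shLITATS1-1 minus shLITATS1-2. H2BC18, in the chromosome 1 cluster, was rarer. H2BC18 stood at 0.683, 0.842 and 0.789 CPM with shLITATS1-1, 0.917, 1.83 and 1.58 CPM with shLITATS1-2, and 0.461, 0.562 and 0.411 CPM with shNT. No 2 groups overlapped. H2BC18 had log2 fold changes of 0.68 (SE 0.36, adjusted p = 0.0938), which did not pass, with shLITATS1-1 and 1.58 (SE 0.31, adjusted p = 8.24e-06) with shLITATS1-2 in the edgeR test against shNT. H2BC18 differed by -0.90 (SE 0.28, adjusted p = 0.00374, edgeR) in shLITATS1-1 minus shLITATS1-2. That difference was lost without shLITATS1-2 replicate 2 (adjusted p = 0.0538, edgeR). Of the 100-base windows of H2BC18, 17.6% occur in another gene.

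The calls of H2BC11, H2BC15 and H2BC6 against shNT turned on single libraries, and H2BC26 gave none. H2BC11 stood at 1.10, 1.89 and 1.11 CPM with shLITATS1-1, 3.09, 3.08 and 2.16 CPM with shLITATS1-2, and 1.74, 2.35 and 2.05 CPM with shNT. The hairpins did not overlap each other, and each overlapped shNT. H2BC11 had log2 fold changes of -0.58 (SE 0.23, adjusted p = 0.0223) with shLITATS1-1 and 0.44 (SE 0.19, adjusted p = 0.0442) with shLITATS1-2 in the edgeR test against shNT. H2BC11 differed by -1.02 (SE 0.21, adjusted p = 2.26e-05, edgeR) in shLITATS1-1 minus shLITATS1-2. The call with shLITATS1-1 was lost without shLITATS1-1 replicate 1 (adjusted p = 0.12) or 3 (0.116) or shNT replicate 2 (0.109). The call with shLITATS1-2 was lost without shLITATS1-2 replicate 1 (0.156) or 2 (0.165) or shNT replicate 1 (0.173) or 3 (0.0855, edgeR throughout). That call was also lost with no filter (adjusted p = 0.0752, edgeR). H2BC15 stood at 1.31, 0.737 and 1.11 CPM with shLITATS1-1, 1.35, 2.26 and 2.45 CPM with shLITATS1-2, and 1.18, 1.53 and 1.33 CPM with shNT. It was higher with shLITATS1-2 and overlapped shNT. H2BC15 had log2 fold changes of -0.36 (SE 0.27, adjusted p = 0.247), which did not pass, with shLITATS1-1 and 0.58 (SE 0.23, adjusted p = 0.0236) with shLITATS1-2 in the edgeR test against shNT. H2BC15 differed by -0.94 (SE 0.24, adjusted p = 0.000554, edgeR) in shLITATS1-1 minus shLITATS1-2. The call with shLITATS1-2 was lost without shLITATS1-2 replicate 2 (adjusted p = 0.101) or 3 (0.162) or shNT replicate 1 (0.0888) or 3 (0.0555, edgeR). DESeq2 did not make that call (adjusted p = 0.0989).

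H2BC6 was the exception among the H2B genes. H2BC6 stood at 1.63, 1.00 and 1.42 CPM with shLITATS1-1, 0.868, 0.577 and 1.06 CPM with shLITATS1-2, and 0.461, 1.23 and 0.873 CPM with shNT. All 3 groups overlapped. H2BC6 had log2 fold changes of 0.66 (SE 0.29, adjusted p = 0.0413) with shLITATS1-1 and -0.033 (SE 0.31, adjusted p = 0.938), which did not pass, with shLITATS1-2 in the edgeR test against shNT. The call with shLITATS1-1 was lost without shLITATS1-1 replicate 1 (adjusted p = 0.191) or 3 (0.098) or shNT replicate 1 (0.301) or 3 (0.0723, edgeR). DESeq2 did not make that call (adjusted p = 0.126), nor did edgeR with no filter (0.0678). Of the 100-base windows of H2BC6, 25.6% occur in another gene. H2BC26 stood at 0.630, 0.474 and 0.421 CPM with shLITATS1-1, 0.434, 0.577 and 0.576 CPM with shLITATS1-2, and 0.563, 0.358 and 0.770 CPM with shNT. That gene overlapped in every pair of groups and passed in no comparison.

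**Figure D3:**
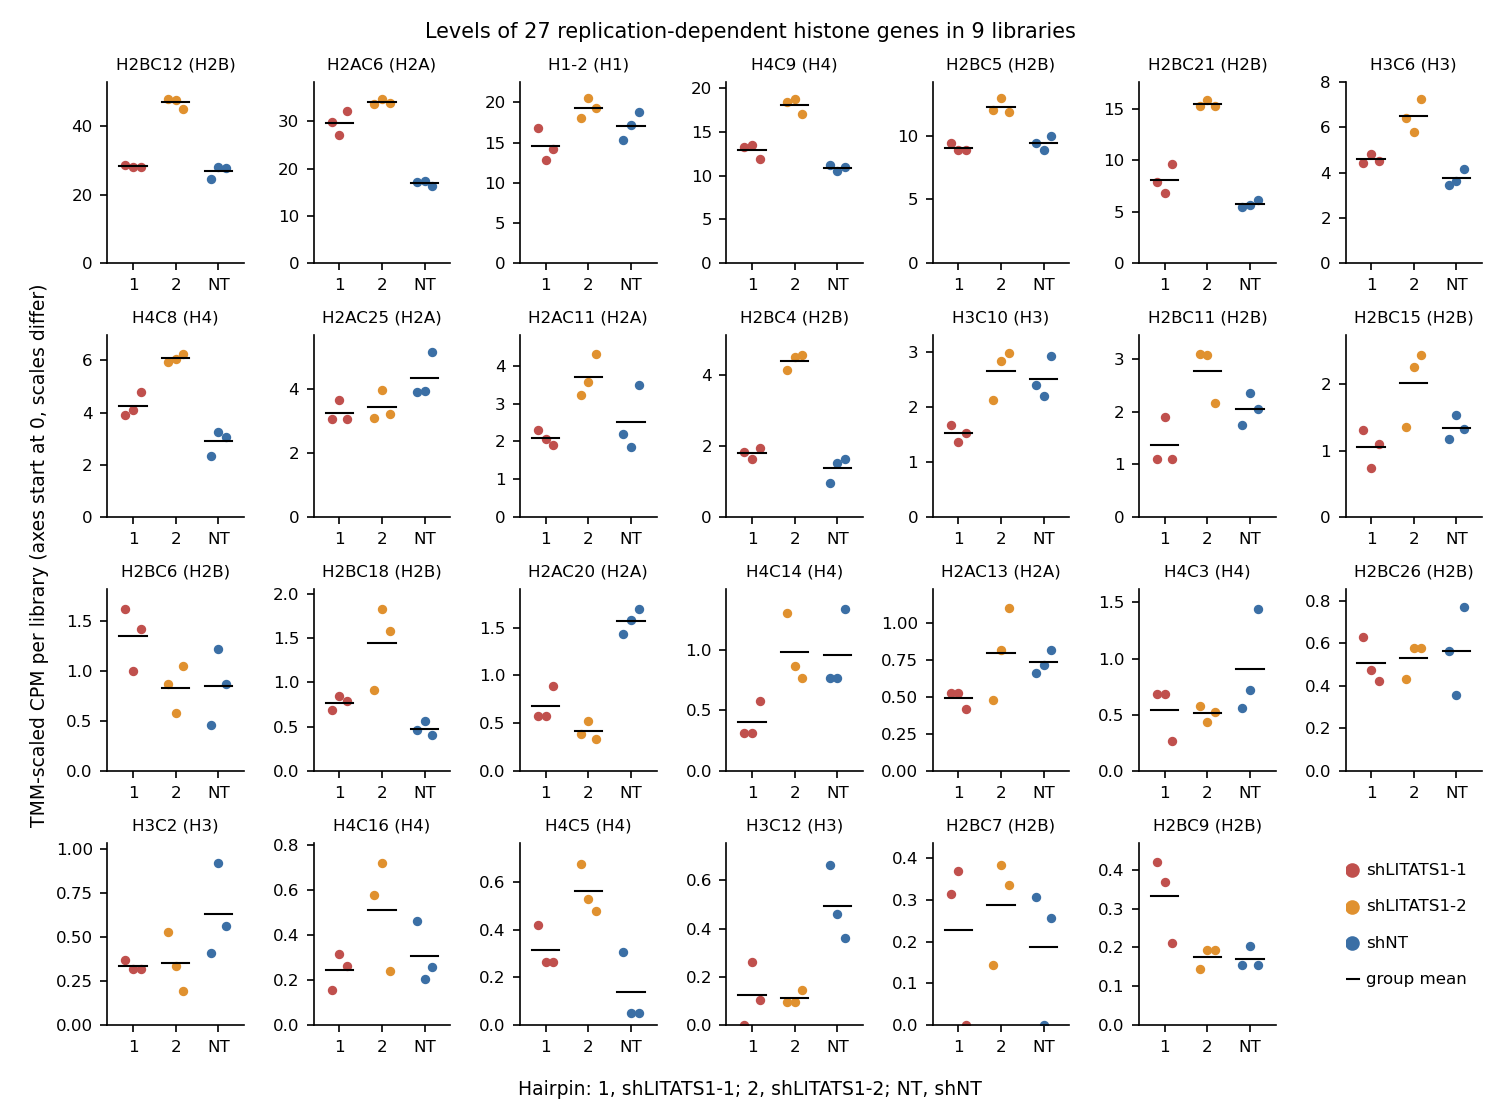
TMM-scaled CPM of each of the 27 histone genes in each library, with shLITATS1-1 (1), shLITATS1-2 (2) and shNT (NT) from left to right. Bars are group means and every axis starts at 0. H2BC12, H2BC5 and H2BC4 have raised points in the shLITATS1-2 column alone, H2AC6 in both LITATS1 hairpin columns, and H2AC20 in the shNT column.

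The H3 class summed to 88.9% ± 2.52 of shNT with shLITATS1-1 and 129.9% ± 11.2 with shLITATS1-2 (SD, n = 3 each). H3C6 (ENSG00000274750, HIST1H3E) was its most counted gene. H3C6 stood at 4.41, 4.84 and 4.53 CPM with shLITATS1-1, 6.42, 5.82 and 7.25 CPM with shLITATS1-2, and 3.48, 3.63 and 4.16 CPM with shNT. The 3 groups did not overlap, with shLITATS1-2 highest. H3C6 had log2 fold changes of 0.29 (SE 0.14, adjusted p = 0.066), which did not pass, with shLITATS1-1 and 0.79 (SE 0.13, adjusted p = 1.93e-07) with shLITATS1-2 in the edgeR test against shNT. H3C6 differed by -0.50 (SE 0.12, adjusted p = 0.000341, edgeR) in shLITATS1-1 minus shLITATS1-2. Without shNT replicate 3, H3C6 was higher with shLITATS1-1 as well (0.37, adjusted p = 0.0422, edgeR). H3C10, which encodes the same kind of canonical H3, ranged over 1.37 to 1.68 CPM with shLITATS1-1, 2.12 to 2.98 CPM with shLITATS1-2 and 2.20 to 2.93 CPM with shNT. It was lower with shLITATS1-1 and overlapped between shLITATS1-2 and shNT. H3C10 had log2 fold changes of -0.72 (SE 0.20, adjusted p = 0.00174) with shLITATS1-1 and 0.077 (SE 0.18, adjusted p = 0.736), which did not pass, with shLITATS1-2 in the edgeR test against shNT. H3C10 differed by -0.79 (SE 0.20, adjusted p = 0.000418, edgeR) in shLITATS1-1 minus shLITATS1-2. H3C2 stood at 0.368, 0.316 and 0.316 CPM with shLITATS1-1, 0.531, 0.337 and 0.192 CPM with shLITATS1-2, and 0.409, 0.920 and 0.565 CPM with shNT. The shLITATS1-1 libraries lay below the shNT libraries and those of shLITATS1-2 overlapped them. H3C2 had log2 fold changes of -0.91 (SE 0.42, adjusted p = 0.054), which did not pass, with shLITATS1-1 and -0.83 (SE 0.40, adjusted p = 0.0738), which did not pass, with shLITATS1-2 in the edgeR test against shNT. Without shNT replicate 1, H3C2 was lower with shLITATS1-1 (-1.14, adjusted p = 0.0245) and with shLITATS1-2 (-1.05, 0.0348), and without shLITATS1-2 replicate 1 it was lower with shLITATS1-2 (-1.24, 0.0267, edgeR throughout).

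The H4 class, whose genes encode the most conserved of the core histones, summed to 116.0% ± 3.63 of shNT with shLITATS1-1 and 165.9% ± 7.82 with shLITATS1-2 (SD, n = 3 each). H4C9 stood at 13.3, 13.5 and 11.9 CPM with shLITATS1-1, 18.4, 18.8 and 17.0 CPM with shLITATS1-2, and 11.2, 10.5 and 11.0 CPM with shNT. H4C9 (ENSG00000276180, HIST1H4I) held most of this class, and its 3 groups did not overlap. H4C9 had log2 fold changes of 0.24 (SE 0.085, adjusted p = 0.0103) with shLITATS1-1 and 0.73 (SE 0.079, adjusted p = 9.38e-13) with shLITATS1-2 in the edgeR test against shNT. H4C9 differed by -0.48 (SE 0.076, adjusted p = 8.87e-08, edgeR) in shLITATS1-1 minus shLITATS1-2. The call with shLITATS1-1 was lost without shLITATS1-1 replicate 2 (adjusted p = 0.0575, edgeR). H4C8 stood at 3.89, 4.10 and 4.79 CPM with shLITATS1-1, 5.93, 6.06 and 6.24 CPM with shLITATS1-2, and 2.35, 3.27 and 3.08 CPM with shNT. H4C8 (ENSG00000158406, HIST1H4H) had the same order of groups, again without overlap. H4C8 had log2 fold changes of 0.55 (SE 0.15, adjusted p = 0.00117) with shLITATS1-1 and 1.07 (SE 0.14, adjusted p = 5e-10) with shLITATS1-2 in the edgeR test against shNT. H4C8 differed by -0.51 (SE 0.13, adjusted p = 0.000404, edgeR) in shLITATS1-1 minus shLITATS1-2.

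The rarer H4 genes differed among themselves. H4C5 stood at 0.420, 0.263 and 0.263 CPM with shLITATS1-1, 0.675, 0.529 and 0.480 CPM with shLITATS1-2, and 0.307, 0.0511 and 0.0513 CPM with shNT. H4C5 stood above shNT in all shLITATS1-2 libraries, at 1 to 6 counts per library with shNT. H4C5 had log2 fold changes of 1.17 (SE 0.61, adjusted p = 0.0886), which did not pass, with shLITATS1-1 and 1.99 (SE 0.52, adjusted p = 0.000796) with shLITATS1-2 in the edgeR test against shNT. Only its shLITATS1-2 libraries, with 14, 11 and 10 counts, reached the filter's minimum of 10. H4C5 was thus tested only because it was high in that group, and its call there gives no separate support. Without shNT replicate 1, the value with shLITATS1-1 was 2.49 and passed (adjusted p = 0.00925, edgeR). H4C14 stood at 0.315, 0.316 and 0.579 CPM with shLITATS1-1, 1.30, 0.866 and 0.768 CPM with shLITATS1-2, and 0.768, 0.767 and 1.33 CPM with shNT. H4C14 was lower with shLITATS1-1 than in either other group, and 94.9% of its 100-base windows occur in another gene, so its counts depend on how shared reads were treated. H4C14 had log2 fold changes of -1.23 (SE 0.36, adjusted p = 0.00247) with shLITATS1-1 and 0.033 (SE 0.29, adjusted p = 0.931), which did not pass, with shLITATS1-2 in the edgeR test against shNT. H4C14 differed by -1.27 (SE 0.36, adjusted p = 0.0016, edgeR) in shLITATS1-1 minus shLITATS1-2. The call with shLITATS1-1 was lost without shNT replicate 3 (adjusted p = 0.0546, edgeR). H4C3 stood at 0.683, 0.684 and 0.263 CPM with shLITATS1-1, 0.579, 0.433 and 0.528 CPM with shLITATS1-2, and 0.563, 0.716 and 1.44 CPM with shNT. All groups overlapped for H4C3, and 1 shNT library was the highest. H4C3 had log2 fold changes of -0.73 (SE 0.35, adjusted p = 0.069), which did not pass, with shLITATS1-1 and -0.81 (SE 0.35, adjusted p = 0.0433) with shLITATS1-2 in the edgeR test against shNT. Without shNT replicate 1 (-0.97, adjusted p = 0.0208) or 2 (-0.87, 0.0482), H4C3 was lower with shLITATS1-1 in the edgeR test. The call with shLITATS1-2 was lost without shNT replicate 3 (adjusted p = 0.552) or without shLITATS1-2 replicate 2 (0.130) or 3 (0.0666, edgeR). DESeq2 did not make that call (adjusted p = 0.142). In edgeR it was also lost with library size scaling, no filter, the length trend removed or the replicate block (0.0545 to 0.0831).

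Levels of different genes were set side by side per kilobase of GENCODE 29 exon length, as TMM-scaled CPM divided by the exon length in kilobases. On that scale H2BC12 averaged 89.1 over all 9 libraries, H1-2 26.5, H2AC6 16.1, H2BC5 11.8 and H4C9 10.8, and the remaining 22 genes lay between 0.110 and 4.46. The models of H2BC12 and H1-2 have 381 and 642 exon bases and hold neither stem-loop nor hexamer. Both values would be lower with longer models. The 5 genes with most counts held 71.2% of all counts of the 27.

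Head-to-head pairs share the DNA between their starts, so the sequence there is shown for the 4 pairs with both genes measured. It is also shown for H2BC12 with its partner H2AC12, which had few counts. Sequences are from RefSeq, GRCh38.p14, plus strand, 5′ to 3′, with the first-named gene on the minus strand to the left and the second on the plus strand to the right. Capitals mark CCAAT or its complement ATTGG, the TATA box spelled as TATAAA or TTTATA, and ATTTGCAT or ATGCAAAT, the octamer bound by POU2F1. TATAAA and TTTATA overlap in the stretch TTTATAAA.
H2BC21 and H2AC20, chr1:149886683-149886917: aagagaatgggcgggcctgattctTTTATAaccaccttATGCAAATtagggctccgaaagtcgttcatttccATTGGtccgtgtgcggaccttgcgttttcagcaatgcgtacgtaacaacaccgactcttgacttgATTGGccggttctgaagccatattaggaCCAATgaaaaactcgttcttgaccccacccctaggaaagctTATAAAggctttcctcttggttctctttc
H2BC4 and H2AC6, chr6:26123927-26124171: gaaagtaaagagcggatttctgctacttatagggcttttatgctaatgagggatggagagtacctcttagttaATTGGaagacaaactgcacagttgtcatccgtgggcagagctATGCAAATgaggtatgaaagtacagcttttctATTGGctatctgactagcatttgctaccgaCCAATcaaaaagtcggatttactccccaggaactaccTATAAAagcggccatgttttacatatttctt
H2BC11 and H2AC11, chr6:27132796-27133042: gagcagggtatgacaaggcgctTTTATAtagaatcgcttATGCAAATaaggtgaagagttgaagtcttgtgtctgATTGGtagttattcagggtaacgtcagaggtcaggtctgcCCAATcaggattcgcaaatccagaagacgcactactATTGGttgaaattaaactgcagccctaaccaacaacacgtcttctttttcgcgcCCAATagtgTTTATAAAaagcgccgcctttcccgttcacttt
H2AC25 and H2BC26, chr1:228457874-228458102: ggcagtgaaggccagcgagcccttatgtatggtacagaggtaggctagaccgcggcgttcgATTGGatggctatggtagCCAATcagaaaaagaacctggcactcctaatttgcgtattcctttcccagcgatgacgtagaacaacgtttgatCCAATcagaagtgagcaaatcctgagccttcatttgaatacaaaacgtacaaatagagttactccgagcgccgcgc
H2BC12 and H2AC12, chr6:27146859-27147105: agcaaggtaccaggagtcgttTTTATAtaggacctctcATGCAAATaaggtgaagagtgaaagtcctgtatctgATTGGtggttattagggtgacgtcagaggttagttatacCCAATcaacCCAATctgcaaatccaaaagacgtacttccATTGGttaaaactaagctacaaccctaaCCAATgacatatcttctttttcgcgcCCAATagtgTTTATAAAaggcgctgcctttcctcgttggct

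The 5 gaps were 229 to 247 bases long. H2BC21 and H2AC20, which flank the first of them, moved in opposite directions with both hairpins. H2AC20 made up 7.70% ± 0.845 of the counts of the pair with shLITATS1-1, 2.61% ± 0.560 with shLITATS1-2 and 21.5% ± 0.509 with shNT (SD, n = 3 each). The 3 groups did not overlap in this share. H2AC6 made up 94.3% ± 0.0785, 88.5% ± 0.429 and 92.5% ± 1.92 of its pair with H2BC4 in the same order, as the H2BC4 gain with shLITATS1-2 was larger in proportion. H2AC11 made up 60.95% ± 8.08, 57.1% ± 8.34 and 54.2% ± 9.63 of its pair with H2BC11, and H2BC26 made up 13.6% ± 3.08, 13.4% ± 1.54 and 11.3% ± 2.61 of its pair with H2AC25. In both of these pairs the shares of all 3 groups overlapped. H2AC12 had 7 counts over all 9 libraries beside the 6101 of H2BC12. Whether H2AC12 mRNA without a tail was missed is not known, so few counts do not show a silent gene.

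**Figure D4:**
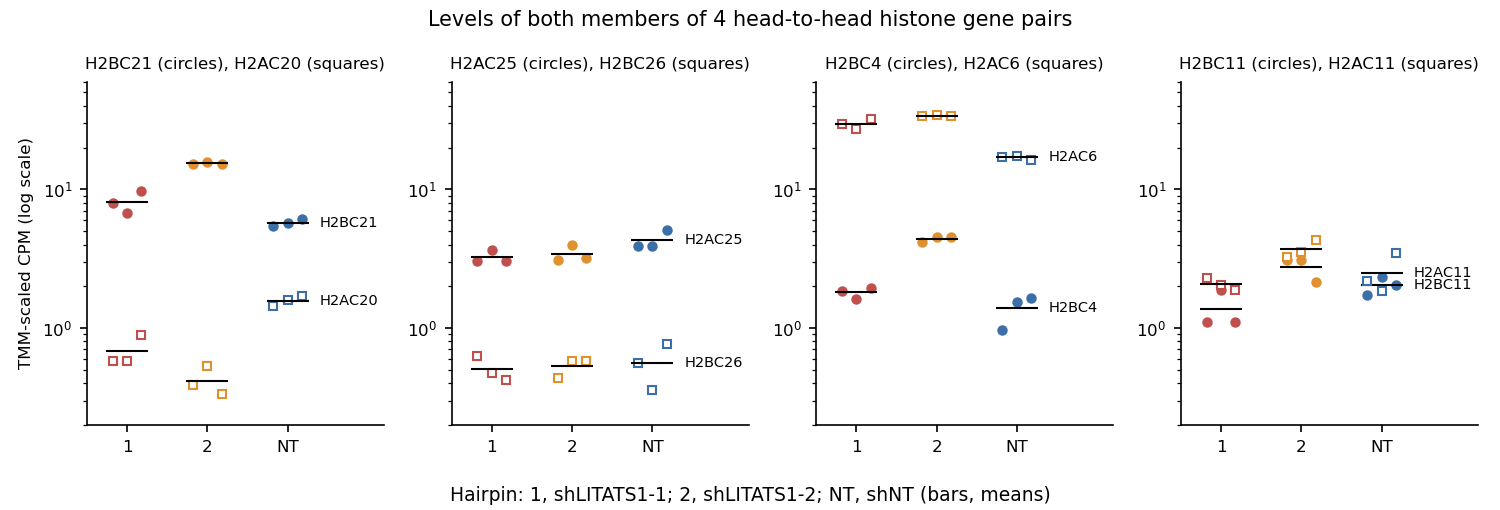
TMM-scaled CPM on a log axis of both genes in 4 head-to-head pairs, per library and group. Bars are group means, and in the first panel H2BC21 (circles) lies higher and H2AC20 (squares) lower with both LITATS1 hairpins than with shNT.

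In 300-base RefSeq promoter windows (250 bases before to 50 after the start, both strands), 25 of the 27 genes could be matched. CCAAT or ATTGG occurred in 84% of them and in 35.7% of 27305 promoters. TATAAA or TTTATA occurred in 56%, against 11.95% of all. ATTTGCAT or ATGCAAAT occurred in 44%, against 1.80% of all, in 8 of 11 H2B and 3 of 5 H2A promoters and in none of the 9 of the H1, H3 and H4 classes. Neighbouring windows of a pair overlap, so these matches are not independent, and a match is not a measured site. The gap between H2BC21 and H2AC20 holds 1 octamer, 3 matches of CCAAT or ATTGG and 2 of TATAAA or TTTATA.

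By annotated transcript end, the 15 tested genes with a polyadenylation hexamer had a median log2 fold change of 0.58 with shLITATS1-2. Of these, 11 were higher (73.3%) and 1 lower (6.7%), against 27.8% and 28.9% of all genes. H4C5, tested only because it was high with shLITATS1-2, is among the 11 and gives no separate support. The 5 tested genes with neither stem-loop nor hexamer in GENCODE 29 had a median of -0.81, with values from -1.90 to 0.80. That median is the value of H4C3, which was -0.32 without shNT replicate 3 (adjusted p = 0.552, edgeR). Among these 5, 2 were higher (H2BC12 and H1-2) and 2 lower (H2AC20 and H4C3), 40% each. With shLITATS1-1 the hexamer genes had 4 higher and 4 lower (26.7% each), near the 30.5% each among all genes. The difference between these groups of genes was not tested. By position, 12 of 17 tested genes on chromosome 6 were higher with shLITATS1-2 (70.6%) and 1 was lower (5.9%). H4C5 is among these 12 as well. Of 6 on chromosome 1, 2 were higher and 2 lower (33.3% each), near the shares among all genes.

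Genes that serve DNA replication and histone supply were mostly lower with both hairpins. Among all genes tested, 30.5% were lower and 30.5% higher with shLITATS1-1, and 28.9% and 27.8% with shLITATS1-2. Of 30 S phase genes, 30 were lower with shLITATS1-1 (median log2 fold change -0.63) and 29 with shLITATS1-2 (-0.56). Their summed level was 65.4% ± 0.520 and 68.3% ± 1.28 of shNT (SD, n = 3 each). CDC45, a subunit of the replicative helicase, had log2 fold changes of -1.09 and -0.78, MCM2, another subunit, -1.01 and -0.82, and CCNA2, the S phase cyclin, -1.05 and -0.40. Of 20 genes of histone mRNA synthesis and 3′ processing, 13 were lower (65%) and 3 higher (15%) with shLITATS1-1. With shLITATS1-2, 12 of them were lower (60%) and 1 higher (5%). SLBP, which encodes the stem-loop binding protein, had log2 fold changes of -0.15 (SE 0.039) and -0.57 (SE 0.040), and NPAT, a coactivator of histone genes, -0.11, which did not pass, and -0.36. Among those higher, CCNE1, the cyclin that drives entry into S phase, had log2 fold changes of 0.37 and 0.18.

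Most genes of histones that are also made outside S phase were lower than with shNT. Of 11 tested replication-independent histone genes, 2 were higher (18.2%) and 7 lower (63.6%) with shLITATS1-1, against 30.5% each among all genes. With shLITATS1-2, 0 were higher and 9 lower (81.8%), against 27.8% and 28.9% among all genes. No log2 fold change of these genes lay above 0 with shLITATS1-2 in the edgeR fit. CENPA, the centromeric H3 variant, had log2 fold changes of -1.52 and -0.96, and H2AX, the variant phosphorylated at DNA breaks, -0.88 and -0.50. MACROH2A2, a variant of silent chromatin, was higher with shLITATS1-1 (0.42) and lower with shLITATS1-2 (-0.14). Of 18 tested histone chaperones and acetylation factors, 14 were lower with shLITATS1-1 (77.8%) and 12 with shLITATS1-2 (66.7%), with 1 higher each (5.6%). SSRP1, a subunit of the FACT chaperone, had log2 fold changes of -0.53 and -1.13. Of 10 genes of histone mRNA translation and decay, 5 were lower (50%) and 2 higher (20%) with shLITATS1-1. With shLITATS1-2, 6 of these 10 were lower (60%) and 1 higher (10%). ERI1, the exonuclease that trims and degrades the stem-loop end, had -0.37 and -0.62. XRN1, a 5′ exonuclease, was higher with both (0.42 and 0.33). The test behind these calls is the same edgeR test, and the part of these genes in the histone levels was not tested.

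**Figure D5:**
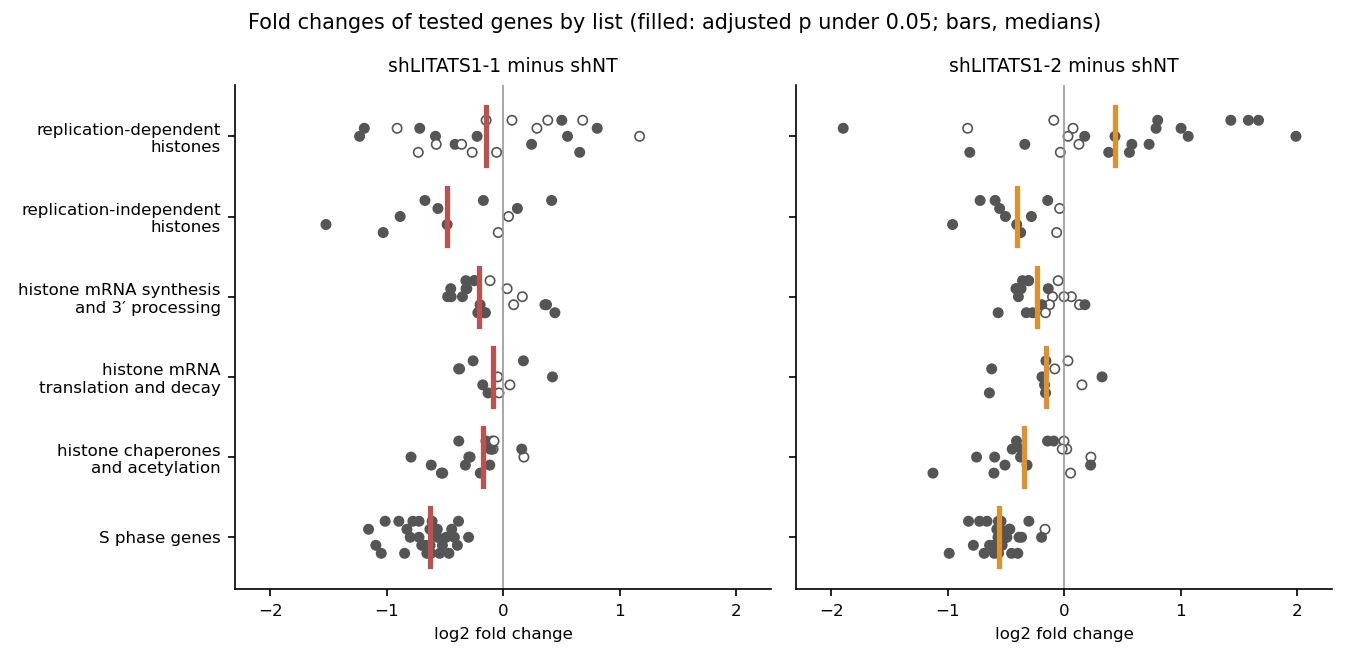
Log2 fold changes of tested genes against shNT, by list, for shLITATS1-1 (left) and shLITATS1-2 (right). Filled points passed an adjusted p of 0.05 and bars are medians. The median of the replication-dependent histones is -0.15 on the left and 0.44 on the right, and that of the S phase genes is -0.63 and -0.56.

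The 4 genes that were not tested and those under the minimum complete the account. H3C12 had 0, 5 and 2 counts with shLITATS1-1, 2, 2 and 3 with shLITATS1-2 and 13, 9 and 7 with shNT, so that both hairpins lay below shNT. H2BC9 had 8, 7 and 4 counts with shLITATS1-1, 3, 4 and 4 with shLITATS1-2 and 3, 4 and 3 with shNT. H4C16, the 1 member on chromosome 12, and H2BC7 overlapped in every pair of groups. The genes just inside the minimum were H2BC9 with 40 counts, H2BC7 with 42 and H3C12 with 43, and those just outside were H2AC14 with 23 and H1-4 and H2BC13 with 22 each. The 42 genes under the minimum had 300 counts in all, 11 of them none. They summed to 22 to 26 counts per library with shLITATS1-1, 33 to 41 with shLITATS1-2 and 37 to 39 with shNT. By class, 1 of 5 H1, 5 of 17 H2A, 11 of 19 H2B, 4 of 13 H3 and 6 of 15 H4 genes reached the minimum.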

How the data were processed

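The authors deposited 1 table of fragment counts per gene for 9 libraries, unnormalized. Tools named per the submitters' processing notes were HTSeq 0.12.4, STAR 2.7.5a, cutadapt 2.10 and FastQC, with the build GRCh38. Annotation release and strand setting were not given in the sources used here. Counts of overlapping, antisense and near-identical genes are therefore uncertain. Sample titles gave the groups and the replicate numbers. Counter lines that name no gene (18.97% to 20.3% of a library) were left out. Genes were kept by filterByExpr with a minimum count of 10 and scaled by TMM, and all 9 libraries entered 1 edgeR 4.0.16 quasi-likelihood fit (glmQLFit, robust, 6 residual degrees of freedom) in R 4.3.3, two-sided, with Benjamini-Hochberg adjustment over all genes tested. The common biological coefficient of variation was 2.71%. Replicates were compared by a chi-square test of counts, whose statistic per degree of freedom was 1.47 to 2.72, so none was taken for a copy of another. The procedure was tested on simulated data.

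Current symbols were taken from RefSeq tables by gene identifier, and GENCODE 29 names were used where none was listed. Exon lengths, transcript ends and 100-base windows shared between genes came from GENCODE 29, which covered all 27 genes. The members and the gene lists were chosen with earlier results of these data known. Values in every library are given for the 10 highest members and for the 4 highest and 4 lowest log2 fold changes in each comparison, and other lists are represented by genes with large changes and by SLBP and NPAT. The values of 1 further gene named by this rule are not reported here. Alternatives were DESeq2 1.42.0, other scalings, other filters and thresholds, trends of exon length and GC content removed, the replicate number as a block and the omission of each library. Python 3.11.15, numpy 2.4.6, pandas 2.3.3 and matplotlib 3.10.9 were used for counts, sequences and plots.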

Additional observations from a re-analysis of the deposited data

Results flagged for a closer look

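H1-2 was called lower with shLITATS1-1 and higher with shLITATS1-2 against shNT, and the hairpins themselves differed by -0.40 on the log2 scale (shLITATS1-1 minus shLITATS1-2, adjusted p = 1.85e-05 by edgeR). H2BC11 was called in opposite directions in the same way, with a difference between the hairpins of -1.02 (adjusted p = 2.26e-05, same test). These were 2 of the 23 tested genes, while 9.01% of all genes were called in opposite directions. In both genes either call against shNT was lost when some single libraries were left out, while the difference between hairpins held. DESeq2 called neither gene against shNT. Its adjusted p with shLITATS1-1 and shLITATS1-2 was 0.0644 and 0.129 for H1-2 and 0.0718 and 0.145 for H2BC11. The pseudogene H2BC19P, which was left out of the histone genes, had 26, 26 and 26 counts with shLITATS1-1, 45, 46 and 56 counts with shLITATS1-2, and 32, 32 and 20 counts with shNT. It was higher with shLITATS1-2 than with shNT by 0.72 on the log2 scale (SE 0.21, adjusted p = 0.00215, edgeR).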

How the results depend on the processing

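DESeq2 called 3 members lower in place of 6 with shLITATS1-1 and 1 in place of 3 with shLITATS1-2, 1 lower with both in place of 2, and 0 higher in shLITATS1-1 minus shLITATS1-2 in place of 1. A filter of 50 counts left fewer genes to test: 3 lower with shLITATS1-1, 0 lower with shLITATS1-2, 0 lower with both, 0 higher between hairpins, and medians of 0.17 with shLITATS1-1, a change of sign, and 0.78 with shLITATS1-2. Scaling by library size alone moved the median of all genes to 0.11 with shLITATS1-2 and -0.15 between the hairpins. The members' medians were then 0.55 and -0.64, the summed level with shLITATS1-2 was 173.0% of shNT, 1 was lower with shLITATS1-2, 1 with both, and 0 higher between hairpins. With the trend on exon length removed, 1 was lower with shLITATS1-2 and 1 with both, and with that on GC content removed, 2 were higher between hairpins. At a threshold of 0.01, 3 were higher and 3 lower with shLITATS1-1, 1 lower with shLITATS1-2, 1 lower with both and 0 higher between hairpins. With 1.5-fold as a minimum, 2 were higher and 3 lower with shLITATS1-1, 9 higher with shLITATS1-2, 9 lower between hairpins, 1 higher with both and 1 lower with both. Leaving out each library gave 4 to 5 members higher and 3 to 8 lower with shLITATS1-1, 11 to 14 higher and 1 to 4 lower with shLITATS1-2, 0 to 1 higher and 14 to 16 lower between hairpins, and 3 to 5 higher and 1 to 4 lower with both. The medians then ranged over -0.24 to 0.014, 0.35 to 0.50 and -0.62 to -0.51 in the 3 comparisons, and the summed level over 108.1% to 115.1% with shLITATS1-1 and 155.0% to 165.1% with shLITATS1-2. Replicate numbers did not pair the samples: deviations of same-numbered libraries correlated at -0.30 to 0.17. With the replicate block, 4 were higher and 6 lower with shLITATS1-1 and 13 higher and 2 lower with shLITATS1-2, and the calls of H2BC6, H1-2 and H4C3 were lost (adjusted p = 0.0507, 0.0646 and 0.0545 in the edgeR test). In the settings with 0 calls, 0 to 1 members passed an unadjusted p of 0.05 in edgeR and 0 in DESeq2. The causes of these shifts were not tested, except where fewer genes or libraries entered. Of the values of single genes under the alternatives, 1194 kept their side of the threshold, 67 lost a call, 14 gained one and 0 changed direction while called. Members with few counts limit the precision: those under 200 counts in all had standard errors of 0.27 to 0.61 on the log2 scale against shNT.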

Other observations

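H2BC20P, a transcribed H2B pseudogene on chromosome 1, had more counts than 20 of the 27 histone genes described, 882 in all. It had 91, 65 and 86 counts with shLITATS1-1, 110, 123 and 94 counts with shLITATS1-2, and 96, 105 and 112 counts with shNT. It was lower with shLITATS1-1 by -0.33 on the log2 scale (SE 0.14, adjusted p = 0.0302 by edgeR) and had -0.027 with shLITATS1-2, which did not pass (adjusted p = 0.875). H2BC19P overlaps it on the opposite strand in GENCODE 29, so without a known strand setting their reads may be shared.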
